A study of Mus musculus with 4 samples.

Results

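Endoderm genes were examined in mouse embryonic stem cells after 1 h of bone morphogenetic protein 2 (BMP-2). The 9 genes were Gata4, Gata6, Sox17, Sox7, Foxa1, Foxa2, Dab2, Hnf4a and Afp, out of 18193 genes that at least 1 probe set named alone. They were chosen by name, as every probe set whose only symbol in the platform annotation was one of the 9, which gave 24 of the 45037 probe sets that are not controls. All cells were E14Tg2A.4, a feeder-independent subline of E14Tg2a, which lacks functional Hprt. For 2 arrays the RNA came from cells given 25 ng/ml BMP-2 over 1 h, and for 2 arrays from cells left without it over the same time. The labels do not tell whether arrays of one treatment are separate cultures or repeat preparations, and every p-value below reflects only how far these arrays lie apart.

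Primitive endoderm is the first endoderm of the mouse embryo. It separates from the pluripotent epiblast in the blastocyst, where GATA6 opposes NANOG and signalling through FGF and ERK favours the endoderm fate. GATA6 acts before GATA4, SOX17 and SOX7, and primitive endoderm goes on to form the parietal and visceral endoderm of the yolk sac. Definitive endoderm arises later, at gastrulation, and uses SOX17, FOXA1 and FOXA2 again on the way to liver, gut and lung. Forced expression of Gata4 or Gata6 turns embryonic stem cells into extraembryonic endoderm, whereas undifferentiated stem cells hold little of these transcripts.

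The arrays gave linear MAS5 signals. Probe sets were tested where the mean of their 4 log2 signals exceeded the 40th percentile, a signal of 53.0, and are called dim otherwise. The test was limma's, treated against untreated, with p-values adjusted over all 27022 tested probe sets. Its standard error (SE), interval and p combine the spread of a probe set's own arrays with that of other probe sets at like signal. The cells carried the stem cell transcripts at high signal and answered BMP-2. Pou5f1 read 11210 and 10714 in treated cells and 10891 and 10293 in untreated cells, and the 8 stem cell markers ranged from 3286 to 22527 over all arrays. Id1, a direct target of BMP signalling, read 9738 and 9495 in treated cells against 3129 and 3007 in untreated cells (log2 difference 1.65, limma adjusted p = 2.0e-05). Id2 and Id3 rose as well, by 1.76 and 1.73 log2 (limma adjusted p = 3.6e-05 for each). Smad6 and Smad7, inhibitory SMADs induced by BMP, differed by 1.27 and 0.66 log2 and did not pass (limma adjusted p = 0.0620 and 0.0635). One array stood apart in its controls: 18S ribosomal RNA read 3.94 to 6.11 times higher on untreated replicate 2 than on any other array. Without that array the 10 tested endoderm probe sets described below differed by -0.39 to 0.95 log2, and 0 passed the test (limma adjusted p = 1.00 for each).

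No endoderm gene passed the test after 1 h of BMP-2. Of the 24 probe sets 10 were bright enough to be tested, and they covered every gene but Afp. Of these, 0 passed an adjusted p of 0.05, against 0.0185% of all tested probe sets, and 1 of the 10, that of Sox7, had an unadjusted p under 0.05, against 3.07%. The array-to-array spread at like signal is the pooled SD of replicate arrays over the 500 probe sets nearest in mean signal, and a difference between means of 2 arrays has that SD when nothing but this spread acts. By this measure 5 of the 24 probe sets, of Gata4, Gata6, Sox7 and Foxa1, lay further above 0 than the spread, against 11.4% of all probe sets, and 0 lay further below, against 12.4%. Treated signals were above both untreated signals for 6 of the 24 and below both for 1, against 14.7% each of all probe sets. Differences were positive for 18 and negative for 6, with a median of 0.21 log2, where the median of all probe sets was -0.0032. Probe sets of 1 gene share a transcript and are not independent, so these counts describe the 24 and are not a test.

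**Figure D1:**
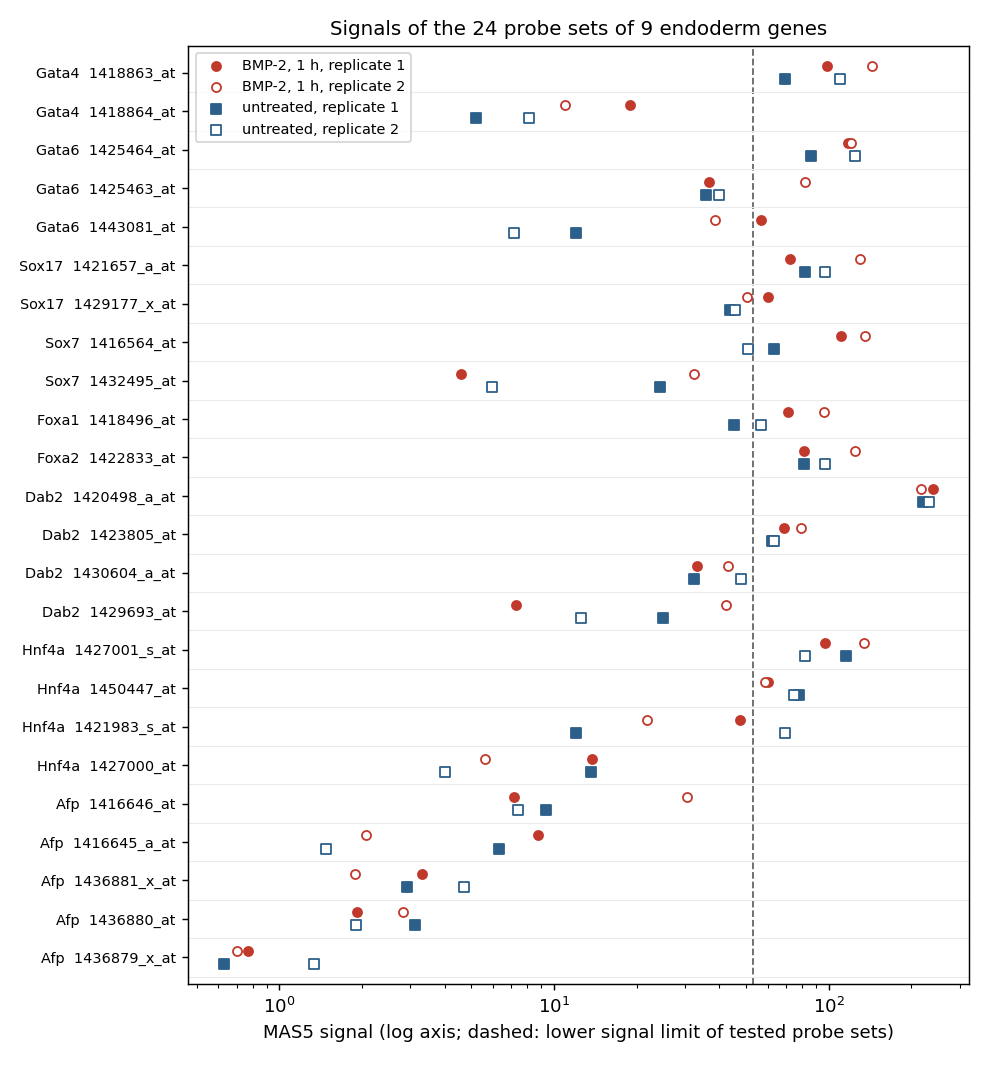
MAS5 signal (log axis) of the 24 probe sets of the 9 genes on each array, with the 2 treated arrays as circles above the 2 untreated arrays as squares. The brighter Dab2 probe set lies at 218 to 240.2, the 5 Afp probe sets lie left of the dashed limit of 53.0 on every array, and the treated circles of Sox7 1416564_at stand clear of its untreated squares.

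GATA6 and GATA4 are zinc finger factors, and GATA6 is the earliest marker of the primitive endoderm lineage. The brightest Gata6 probe set, 1425464_at, read 118 and 120.5 in treated cells against 86.4 and 125 in untreated cells. One untreated array was thus the highest of the 4, and the groups overlapped. The difference was 0.20 ± 0.28 log2 (SE, n = 2 each, limma adjusted p = 1.00) with a 95% interval of -0.42 to 0.82, and it was -0.071 without untreated replicate 1 and 0.46 without untreated replicate 2. The second Gata6 probe set, 1425463_at, was dim and read 36.7 and 82.4 in treated cells against 35.8 and 39.9 in untreated cells. Only 1 of its 4 signals, on treated replicate 2, was above the signal limit, and the difference of 0.54 log2 was -0.042 without that array.

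The remaining Gata6 probe set, 1443081_at, gave the largest difference of the 24. It read 56.9 and 38.7 in treated cells and 12.0 and 7.13 in untreated cells. Both treated arrays were above both untreated ones, but 3 of the 4 signals were below the limit of 53.0. The difference was 2.34 log2, or 2.70 times the spread of 0.87 log2 at that signal. In the fit without a filter on dim probe sets its interval was 0.86 to 3.82 log2, with an unadjusted p of 0.00653 and an adjusted p of 1.00 over all 45037 probe sets. In that fit 2 of the 24 probe sets had an unadjusted p under 0.05, against 3.72% of all, and 0 passed the adjusted threshold, against 0.00888%. With every signal below the limit raised to it, the difference was 0.05 log2. The largest Gata6 difference thus came from the probe set with the least signal.

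Gata4 was measured by 2 probe sets. On 1418863_at it read 98.9 and 144 in treated cells and 69.7 and 110.5 in untreated cells. The lower treated array was under the higher untreated one. The difference was 0.45 ± 0.33 log2 (SE, n = 2 each, limma adjusted p = 1.00, interval -0.28 to 1.17), 1.30 times the spread, and ran from 0.11 without untreated replicate 1 to 0.78 without untreated replicate 2. The other, 1418864_at, read 18.9 and 10.9 in treated cells against 5.20 and 8.09 in untreated cells, a difference of 1.15 log2 at a spread of 1.07. All 4 of its signals were below the limit, so raising them to it leaves a difference of 0.

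SOX7 and SOX17 are HMG-box factors of the SOXF subfamily. SOX7 marks primitive and parietal endoderm, and SOX17 marks both primitive and definitive endoderm. Sox7 gave the largest difference among the tested probe sets of the 9 genes. On 1416564_at it read 111 and 135 in treated cells and 63.5 and 50.9 in untreated cells, or 123 ± 16.9 against 57.2 ± 8.90 (SD, n = 2 each). The groups did not overlap, and the untreated signals lay on either side of the signal limit. The difference was 1.11 ± 0.31 log2 (SE), a fold of 2.16 with an interval of 1.33 to 3.50, with an unadjusted p of 0.00518 and a limma adjusted p of 1.00. It was 2.75 times the spread of 0.40 log2, and 1.08 log2 with signals raised to the limit. Leaving out an array gave 0.95 to 1.27 log2.

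The second Sox7 probe set, 1432495_at, did not show that difference. It read 4.59 and 32.4 in treated cells against 24.3 and 5.95 in untreated cells. Each group held 1 higher and 1 lower array, all below the limit, and the difference was 0.02 log2 at a spread of 1.08. Sox17 on 1421657_a_at read 72.2 and 129.8 in treated cells and 82.2 and 97.5 in untreated cells. The treated arrays were the lowest and the highest of the 4, and the difference was 0.11 ± 0.34 log2 (SE, n = 2 each, limma adjusted p = 1.00, interval -0.65 to 0.87). It was -0.31 without treated replicate 2 and -0.010 without untreated replicate 1. The dim Sox17 probe set 1429177_x_at, a type whose probes can match other transcripts, read 60.4 and 50.3 in treated cells against 43.6 and 45.5 in untreated cells. These groups did not overlap, but the difference of 0.31 log2 was smaller than the spread of 0.54.

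**Figure D2:**
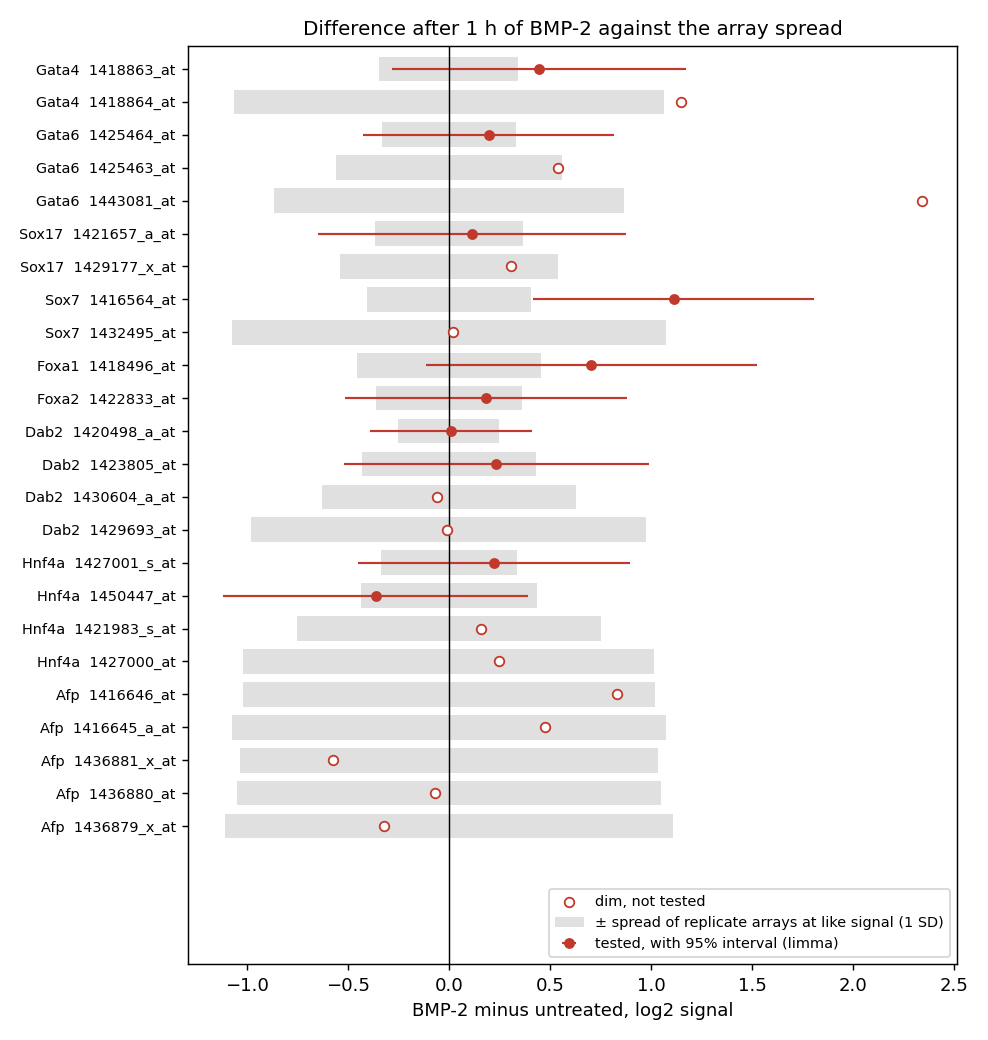
Log2 difference, treated minus untreated, of the 24 probe sets, as filled points with the 95% interval from limma for the 10 tested ones and open points for the 14 dim ones. Grey bars mark 1 SD of the array-to-array spread at like signal either side of 0; only the points of Gata4 (both), Gata6 1443081_at, Sox7 1416564_at and Foxa1 lie outside them, and of the intervals only that of Sox7 1416564_at leaves out 0.

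FOXA1 and FOXA2 are forkhead factors that can bind closed chromatin and open liver and gut enhancers in definitive endoderm, and FOXA2 is also made in visceral endoderm. Each has 1 probe set. Sequence upstream of a RefSeq start (build GRCm38.p6) is shown for this pair, because its members differ in whether the groups overlapped, and for Afp, the dimmest gene. Of the 9 genes 5 matched the promoter table (Foxa1, Foxa2, Dab2, Hnf4a and Afp), with 9 starts. Each line gives the 250 bases before a start, 5′ to 3′ on the gene's strand, with capitals on any match to 4 short motifs that were searched on both strands and are spelled out after the sequences. The regions are chr12:57546112-57546361 on the minus strand for Foxa1, chr2:148046970-148047219 on the minus strand for Foxa2 and chr5:90490464-90490713 on the plus strand for Afp.
Foxa1: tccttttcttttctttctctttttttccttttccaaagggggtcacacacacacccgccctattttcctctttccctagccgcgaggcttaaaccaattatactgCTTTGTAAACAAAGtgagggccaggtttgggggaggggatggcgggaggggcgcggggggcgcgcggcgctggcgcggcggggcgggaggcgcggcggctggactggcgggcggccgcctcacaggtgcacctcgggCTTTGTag
Foxa2: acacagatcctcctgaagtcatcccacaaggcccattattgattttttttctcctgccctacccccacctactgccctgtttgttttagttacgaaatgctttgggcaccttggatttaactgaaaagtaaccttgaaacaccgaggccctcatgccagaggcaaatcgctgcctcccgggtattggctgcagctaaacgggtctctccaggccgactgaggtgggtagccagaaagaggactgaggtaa
Afp: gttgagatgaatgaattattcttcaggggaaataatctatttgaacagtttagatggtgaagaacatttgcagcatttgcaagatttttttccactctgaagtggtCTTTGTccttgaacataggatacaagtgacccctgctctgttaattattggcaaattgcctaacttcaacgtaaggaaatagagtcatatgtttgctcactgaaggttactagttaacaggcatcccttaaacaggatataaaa
The SMAD1 and SMAD5 motif was searched as GGCGCC, which 9.59% of all 32851 promoters of that length in the table held. For GATA factors the letters were AGATAA, held by 9.99%. Forkhead (FOX) factors were represented by TGTTTAC, held by 3.17%. The SOX letters were ACAAAG, held by 16.5%. The Foxa1 stretch held 1 FOX match and 3 SOX matches, of which 2 overlap the FOX match from either side. Its start lies 1918 bases inside the span that RefSeq annotates for the gene. The Foxa2 stretch at the outermost of 3 annotated starts held 0 matches, and the Afp stretch held 1 SOX match. Among the 9 starts of the 5 genes, 2 held the SMAD letters, 2 the GATA letters, 1 the FOX letters and 3 the SOX letters. The innermost Foxa2 start, not printed here, held 1 match each to the SMAD, GATA and SOX letters. A match is a description of these letters and not a binding site.

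Foxa1 read 71.3 and 96.0 in treated cells and 45.3 and 56.8 in untreated cells. Both treated arrays were above both untreated ones, of which 1 was below the signal limit. The difference was 0.71 ± 0.37 log2 (SE, n = 2 each, limma adjusted p = 1.00, unadjusted p = 0.0838, interval -0.11 to 1.52), which is 1.55 times the spread of 0.46 log2. It was 0.59 log2 with signals raised to the limit. Foxa2 read 81.6 and 125 in treated cells against 81.3 and 96.9 in untreated cells. Its lower treated array equalled the lower untreated array to within 1 signal unit, and the groups overlapped. The difference was 0.18 ± 0.31 log2 (SE, n = 2 each, limma adjusted p = 1.00, interval -0.51 to 0.88), and -0.12 without treated replicate 2. Whether Foxa1 and Foxa2 differed from each other in response was not tested, and their intervals overlap.

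HNF4A is a nuclear receptor needed in visceral endoderm and later in liver. Its 4 probe sets did not run one way. On 1427001_s_at Hnf4a read 96.8 and 135 in treated cells and 116 and 82.2 in untreated cells, with overlapping groups and a difference of 0.22 ± 0.30 log2 (SE, n = 2 each, limma adjusted p = 1.00). That difference was -0.014 without treated replicate 2 and -0.025 without untreated replicate 2. On 1450447_at it read 60.1 and 58.9 in treated cells against 78.2 and 74.9 in untreated cells. This was the 1 probe set of the 24 with both treated arrays below both untreated ones, at -0.36 ± 0.34 log2 (SE, n = 2 each, limma adjusted p = 1.00, interval -1.12 to 0.39), within the spread of 0.44. The dim 1421983_s_at read 47.6 and 21.8 in treated cells against 12.0 and 69.1 in untreated cells. The dim 1427000_at read 13.8 and 5.59 against 13.6 and 4.02 in the same order, so in both the arrays within a group differed more than the groups did.

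DAB2 is an endocytic adaptor that sorts receptors in primitive and visceral endoderm, where it is a downstream marker of GATA6. Dab2 had the brightest probe set of the 24. On 1420498_a_at it read 240.2 and 218 in treated cells and 222 and 233 in untreated cells. The 4 signals lay close together and the groups overlapped. The difference was 0.01 ± 0.18 log2 (SE, n = 2 each, limma adjusted p = 1.00) with an interval of -0.39 to 0.41, the narrowest of the 10, and it was -0.026 after quantile normalization, -0.059 without treated replicate 1 and -0.023 without untreated replicate 1. On 1423805_at Dab2 read 68.8 and 79.7 in treated cells against 62.5 and 63.4 in untreated cells. These did not overlap, at a difference of 0.23 log2 within the spread of 0.43, and it was 0.13 without treated replicate 2. The dim probe sets 1430604_a_at and 1429693_at differed by -0.06 and -0.01 log2, and on the second of these treated cells read 7.28 and 42.5 and untreated cells 25.0 and 12.5.

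AFP, alpha-fetoprotein, is the main serum protein of visceral endoderm and fetal liver and marks their differentiated state. None of its 5 probe sets reached the signal limit on any array. The brightest, 1416646_at, read 7.17 and 30.4 in treated cells against 9.34 and 7.39 in untreated cells. The high value belonged to 1 treated array alone, and the difference of 0.83 log2 was within the spread of 1.02 at that signal. The other 4 probe sets read 0.701 to 8.72 in treated cells and 0.628 to 6.34 in untreated cells, with differences of -0.58 to 0.47 log2. A spread of over 1 log2 at these signals means that a 2-fold difference between means would not stand out.

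**Figure D3:**
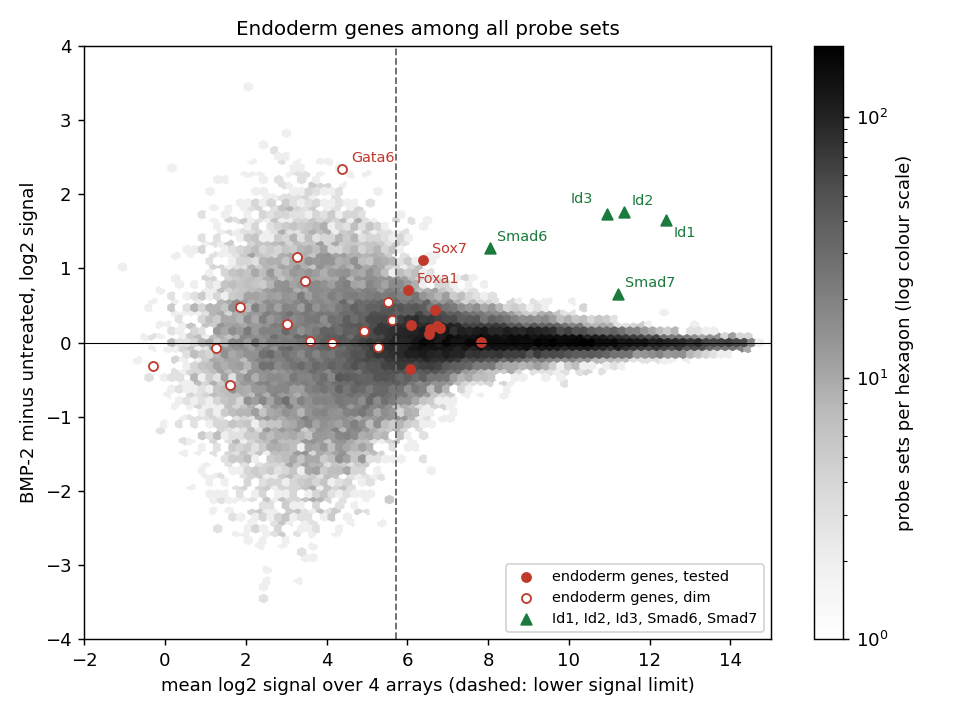
Log2 difference, treated minus untreated, against mean log2 signal for all 45037 probe sets (grey, darker where more lie), with the endoderm probe sets as red points, filled where tested, and 5 early BMP response genes as green triangles. The cloud widens to the left of the dashed limit, where the Gata6 probe set at 2.34 log2 lies, while Id1, Id2 and Id3 stand at 1.65 to 1.76 log2 in the narrow part of the cloud.

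Other genes of the endoderm lineages were taken from lists written from general knowledge, but with earlier results of these data known. Each gene was represented by its brightest tested probe set. Over all 12976 genes so represented, 4 passed, or 0.0308%, 3.21% had an unadjusted p under 0.05, 53.0% had a positive difference and the median was 0.01 log2. Treated signals were above both untreated signals for 16.4% of these genes and below both for 12.4%, and for 12.9% and 18.4% of the 5217 dim genes. Of 24 genes of primitive and visceral endoderm 11 were tested and 0 rose or fell, with 5 positive and 6 negative differences and a median of -0.0032 log2. The secreted signal Ihh, made in visceral endoderm, read 105 and 125 in treated cells against 98.2 and 86.6 in untreated cells, a difference of 0.31 log2 (limma adjusted p = 1.00). Apoe, an apolipoprotein, and Rhox5, a homeobox gene of extraembryonic tissues, were bright in both groups and differed by -0.09 and -0.08 log2. The nidogen gene Nid2, of the basement membrane, differed by 0.07 log2. Another 9 of these genes were dim, among them the visceral endoderm transcripts Ttr, Apoa1, Apoa4, Apob and Apoc2. Of these 9, 2 had treated signals above both untreated ones and 0 below. Ttr, the thyroid hormone carrier transthyretin, read 26.0 and 21.9 in treated cells against 4.00 and 13.1 in untreated cells, and Fgg, a fibrinogen chain, read 31.7 and 38.3 against 8.30 and 18.8 in the same order, all below the signal limit.

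Parietal endoderm makes the laminins and type IV collagen of Reichert's membrane. Of 15 genes on that list 14 were tested and 0 rose or fell, with 6 positive and 8 negative differences and a median of -0.04 log2. The laminin gene Lamb1 read 1776 and 1658 in treated cells against 1537 and 1673 in untreated cells, and the collagen gene Col4a1 read 695 and 627 against 658 and 559 in the same order. Both overlapped between the groups, at 0.10 and 0.12 log2. Sparc, a matrix glycoprotein, differed by 0.08 log2, and Plat, a plasminogen activator, by 0.40 log2 (SE 0.33). The groups stayed apart for 3 of the 14, all lower in treated cells, where 12.4% of all genes were lower and 16.4% higher without overlap. These 3, picked out here after their values were seen, were Pth1r, Snai1 and Krt8, at -0.16, -0.17 and -0.09 log2 (limma adjusted p = 1.00 for each). Stem cells too are known to make laminin and type IV collagen.

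Of 15 genes of definitive and anterior endoderm 9 were tested and 0 rose or fell, with 4 positive and 5 negative differences and a median of -0.07 log2. Eomes, a T-box factor that acts before definitive endoderm forms, read 237 and 251 in treated cells against 213 and 198 in untreated cells. These groups did not overlap, at 0.25 ± 0.18 log2 (SE, n = 2 each, limma adjusted p = 1.00). Otx2, a homeobox factor of epiblast and anterior visceral endoderm, read 2565 and 2461 against 2349 and 2383 in the same order, or 0.09 log2. The signalling gene Shh and the gut peptide gene Pyy differed by -0.30 and -0.47 log2, with overlapping groups. Treated signals were above both untreated signals for 2 of the 9, Eomes and Otx2, and below both for 1. Of all genes 16.4% were higher and 12.4% lower without overlap. The lower 1, picked out here after its values were seen, was Cxcr4, at -0.24 log2. Cxcr4 read 54.9 and 44.7 in treated cells against 57.8 and 59.1 in untreated cells, with treated replicate 2 below the signal limit. Among the 6 dim genes were Cer1, Gsc and Lhx1. For 1 of the 6, the caudal homeobox gene Cdx2, the groups lay apart, at 56.5 and 88.8 in treated cells against 32.2 and 48.7 in untreated cells. Of all dim genes 12.9% were higher and 18.4% lower without overlap.

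Paralogues of the 9 genes gave a further comparison. Of 9 such genes 6 were tested and 0 rose or fell, as in the 3 endoderm lists with 0 at an unadjusted p under 0.05, with 5 positive and 1 negative difference and a median of 0.13 log2. Foxa3, the other FOXA gene, read 137 and 147 in treated cells against 106 and 98.4 in untreated cells. Its groups did not overlap, as for Foxa1, at 0.48 ± 0.24 log2 (SE, n = 2 each, limma adjusted p = 1.00, unadjusted p = 0.0788). Gata2, a blood and trophoblast GATA factor, read 290.4 and 348 against 239.8 and 309 in the same order, or 0.22 log2, with overlap. Dab1, an adaptor of reelin signalling in neurons, differed by 0.13 log2. Alb, the albumin gene beside Afp in its family, differed by -0.54 log2 at signals of 35.1 and 73.1 in treated cells against 70.8 and 77.2 in untreated cells. Of the 6 tested, 1, Foxa3, was higher without overlap and 0 were lower, against 16.4% and 12.4% of all genes. Another 3 paralogues were dim, of which 1, Gata3, was higher without overlap and 1, Gata5, was lower. Gata3 and Gata5 differed by 1.23 and -0.67 log2, with every signal below the limit of 53.0. Of all dim genes 12.9% were higher and 18.4% lower without overlap. The tested probe sets of the 9 endoderm genes themselves, taken 1 per gene, were positive for 8 of 8, where 53.0% of all genes were. For Gata6, Sox17, Foxa2, Dab2 and Hnf4a the sign turned when 1 or another array was left out. The median of the 8 was 0.21 log2. It was 0.51 and 0.13 without treated replicate 1 and 2, and 0.085 and 0.39 without untreated replicate 1 and 2. Over the 10 tested probe sets 9 were positive, where 52.2% of all tested probe sets were. The negative one was Hnf4a 1450447_at, at -0.36 log2. Foxa1 was bright enough to be tested only through its treated arrays, with a mean signal of 83.6 there. Its untreated mean was 51.1, below the limit of 53.0, so the filter favoured a positive difference for it. These counts describe the genes bright enough to be tested, and no p is given for them.

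**Figure D4:**
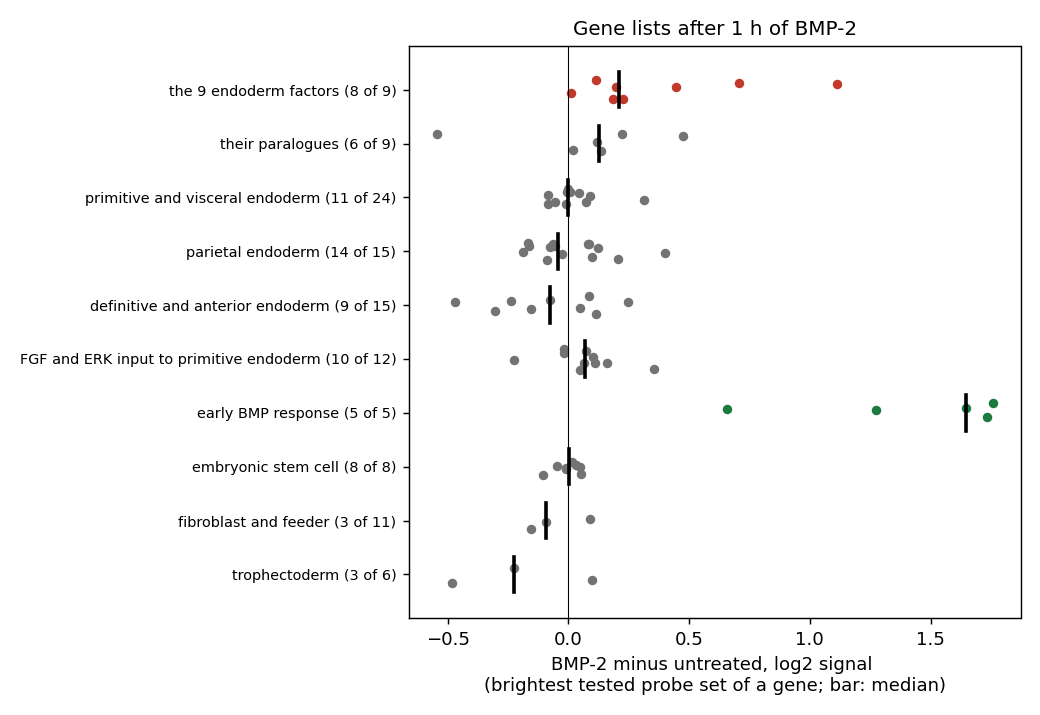
Log2 difference, treated minus untreated, of each tested gene by its brightest probe set, by list, with the number tested of the number listed; black bars are list medians. The endoderm factors run from 0.01 to 1.11 log2, while the early BMP response genes Id1, Id2, Id3, Smad6 and Smad7 run from 0.66 to 1.76 log2 and the stem cell markers from -0.11 to 0.05 log2.

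In bulk RNA, a change in the number of endoderm-like cells and a change in transcript per cell cannot be told apart. Markers of other cell types were set beside the endoderm values. Of 11 fibroblast and feeder markers 3 were tested, Thy1, Col1a2 and Twist1, at -0.16, 0.09 and -0.09 log2, and 7 were dim. Thy1 was lower in treated cells without overlap, at 210 and 214 against 239 and 233 in untreated cells. Of the 7 dim ones Col1a1, S100a4 and Lum were higher in treated cells without overlap, at 0.56, 0.89 and 0.25 log2, and 0 were lower without overlap. Of all dim genes 12.9% were higher and 18.4% lower without overlap. Every signal of Col1a1, S100a4 and Lum was below the signal limit. The median of the list was -0.09 log2 over its tested genes, 0.13 without a filter on dim probe sets and 0.13 without untreated replicate 2. Their part in the endoderm values was not tested. The summed signal of the fibroblast and feeder markers over 10 genes was 647 and 759 in treated cells against 655 and 702 in untreated cells. Of 6 trophectoderm markers 3 were tested, with Krt7 at -0.48, Hand1 at -0.23 and Tfap2c at 0.10 log2. Hand1 was lower without overlap, at 178 and 161 in treated cells against 192 and 204 in untreated cells. The summed signal over 5 of these genes was 1984 and 2251 against 2025 and 2062 in the same order, of which Tfap2c alone made 1692 and 1941 against 1680 and 1707. The sums overlapped between the groups for both lists, and 0 genes of either list passed the test or had an unadjusted p under 0.05. The summed signal of the 8 stem cell markers was 90745 and 86444 in treated cells and 90980 and 85599 in untreated cells, which also overlapped.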

How the data were processed

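Biotin-labelled cRNA from the total RNA of 4 samples was read on Affymetrix arrays, per the labels' protocols. The authors deposited 1 linear intensity signal per probe set, summarised with MAS5 per the submitters' processing notes (which version is not given in the sources used here). Their 2%-trimmed mean was 500.0 on each array, so the arrays had been scaled. No detection calls were used, and brightness took their place.

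Signals were taken as log2 without a pseudocount or further normalization. With 64 control probe sets left out, 27022 of 45037 exceeded the 40th percentile of mean log2 signal (5.73). These were tested, two-sided, with limma 3.58.1 under R 4.3.3, using lmFit and eBayes with an intensity trend (2 residual and 7.98 prior degrees of freedom), and Benjamini-Hochberg adjustment covered all of them. Dim probe sets were tested only in the fit without a filter. Symbols are those of the platform annotation, in which 34945 probe sets name 1 gene. The fit was tested on simulated data. Sequences are from RefSeq, build GRCm38.p6. Permuting 2 against 2 arrays cannot reach 0.05 for 1 gene and was not done.

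The members and the 9 other lists were chosen with earlier results of these data known. Genes outside the 9 were named by a rule: those past the threshold and, up to 4 a list, those with the smallest p. All 5 genes of the early BMP response were named. Outside the rule, Pth1r, Snai1, Krt8, Cxcr4 and the dim genes of the lists were named after their values were seen. Listed genes that no probe set named alone were not analysed here. Results were recomputed with the arrays quantile-normalized or centred on their medians, with a pseudocount of 25.4, with a stricter filter or none, without the trend, with replicate number as a block, without each array in turn, with signals raised to the limit and with all probe sets of a gene averaged.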

Additional observations from a re-analysis of the deposited data

How the results depend on the processing

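None of the 10 tested endoderm probe sets passed an adjusted p of 0.05 by limma under any of the alternative fits, and the lowest adjusted p was 0.0843, for Sox7 after median centring (0.0843 to 1.00 over its alternatives). The count of all probe sets past the threshold was 5 in the reported setting, 116 after median centring, 8 with the filter at the 60th percentile, 0 without the intensity trend (1023 at an unadjusted p under 0.05), 11 with the replicate number as a block and 16 to 141 when an array was left out. The cause of these shifts was not tested. Leaving out an array turned the sign for Gata6 1425464_at (-0.071 to 0.46 log2), Sox17 1421657_a_at (-0.31 to 0.54), Foxa2 (-0.12 to 0.49), Dab2 1420498_a_at (-0.059 to 0.081, and -0.026 after quantile normalization) and Hnf4a 1427001_s_at (-0.025 to 0.47). Sox7 1416564_at, Foxa1, Gata4 1418863_at, Dab2 1423805_at and Hnf4a 1450447_at kept their sign in every setting in which they were tested. The stricter filter left 1 of the 10 probe sets, that of Dab2. Deviations of equally numbered arrays from their group means correlated at 0.15 over tested probe sets, and the median signals were 81.8 and 82.5 on treated and untreated replicate 1 and 94.9 and 94.6 on treated and untreated replicate 2. No label says what the number marks, and 2 pairs do not settle whether it stands for a shared batch. With the replicate block 1452 probe sets had an unadjusted p under 0.05, against 829 without it, and the block changed no call for the 9 genes (Sox7 adjusted p = 0.651). At the signals of the 14 dim probe sets replicate arrays differed with an SD of 0.54 to 1.11 log2, which limits what these can show, and 0 of them passed in the fit without a filter.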

Other observations

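FGF and ERK signalling favours primitive endoderm over epiblast in the embryo, and 10 of 12 genes of this input were bright enough to be tested. None of them passed by limma, with 7 positive and 3 negative differences, a median of 0.07 log2 and 1 unadjusted p under 0.05, against 3.21% of all genes tested. Treated signals were above both untreated ones for 4 of the 10 and below both for 1, against 16.4% and 12.4% of all genes. Dusp6, a phosphatase that is both target and inhibitor of ERK, read 3109 and 2864 in treated cells against 2583 and 2105 in untreated cells, a difference of 0.36 ± 0.11 log2 (SE, n = 2 each, limma adjusted p = 1.00, unadjusted p = 0.00869). Etv4, an ETS factor induced by FGF, read 1115 on each treated array against 1353 and 1257 in untreated cells, a difference of -0.23 ± 0.10 log2 (SE, limma adjusted p = 1.00). These 2 genes thus lay apart in opposite directions, each without overlap between the groups. Sos1 and Map2k2, which carry the signal from receptors to ERK, differed by 0.16 and 0.10 log2, also without overlap.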
